A study of Mus musculus with 6 samples.

Results

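Inhibitory checkpoint receptors are surface proteins that hold back an activated T cell. Their genes were examined in 3 CD73 KO and 3 WT libraries of OT-I CD8 T cells. The 10 genes were picked by name, as receptors commonly scored on exhausted T cells, and each was found by its identifier among the 49671 genes of the count table: Pdcd1, Havcr2, Lag3, Tigit, Ctla4, Cd160, Cd244a, Btla, Cd200 and Cd96. OT-I mice carry a transgenic receptor for the ovalbumin peptide SIINFEKL. Both groups were splenic CD8 T cells given 10 ng/mL of that peptide daily over 5 days, with the cytokines IL-7 and IL-15 at 5 ng/mL each, a culture meant to drive exhaustion, and total RNA was sequenced. CD73, the product of Nt5e, is the surface enzyme that makes adenosine from AMP. The sources used here do not say how the CD73 allele was made, nor whether each library had a mouse or a culture of its own. P-values therefore reflect library-to-library spread, which may be technical.

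A T cell that keeps meeting its antigen switches on several inhibitory receptors at once, and their joint, lasting expression is a hallmark of exhaustion. PD-1 and CTLA-4 belong to the family of CD28 and bind B7 ligands. TIGIT and CD96 compete with the activating receptor CD226 for nectin-type ligands. TIM-3, encoded by Havcr2, is used as a marker of terminally exhausted cells, whereas Slamf6 and Tcf7 mark their stem-like precursors.

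Libraries held 6934150 to 19382950 counts, the lowest in WT replicate 3 and the highest in CD73 KO replicate 1, so that 1 count equalled 0.0516 to 0.144 CPM of the library total. CPM levels below also carry TMM factors unless stated. Where a single library's level has an interval, it is the exact 95% Poisson interval, which takes in counting error alone. The 6 markers of CD8 T cells summed to 3594 to 3920 CPM in CD73 KO and 3190 to 3396 CPM in WT. Nt5e, the targeted gene, stood at 3.67, 8.44 and 8.46 CPM in CD73 KO replicates 1, 2 and 3, and at 22.5, 5.21 and 37.4 CPM in the libraries labelled WT replicates 1, 2 and 3. The library labelled WT replicate 2 thus lay within the CD73 KO range for the targeted gene, whose log2 fold change was -1.67 ± 0.72 (SE; adjusted p = 0.534 by edgeR's quasi-likelihood test). What part of the transcript the knockout removes is not given, so Nt5e reads may come from outside it.

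Among the 10 receptor genes, Havcr2 and Cd244a differed most between libraries, and the 250 bases before their starts are shown because both hold a letter match to the AP-1 motif. The windows of Pdcd1 and Cd200, which shared another pattern over the libraries, stand beside them. Sequences are RefSeq promoters on GRCm38.p6, the assembly that mm10 names, written 5′ to 3′ on the gene's own strand, and an entry was found for 9 of the 10 genes. Capitals mark matches, on either strand, to TGANTCA (the AP-1 motif), to GGAAA (the core of the NFAT motif) or to AACAAAG (a TCF and LEF motif), and matches that overlap run together. AP-1 and NFAT are factors switched on by T cell receptor signalling.

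Havcr2, chr11:46454681-46454930, plus strand: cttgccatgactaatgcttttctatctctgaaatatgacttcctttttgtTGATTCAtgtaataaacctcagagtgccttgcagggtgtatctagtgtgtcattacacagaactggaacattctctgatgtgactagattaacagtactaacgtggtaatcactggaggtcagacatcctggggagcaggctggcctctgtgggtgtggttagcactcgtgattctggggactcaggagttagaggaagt
Cd244a, chr1:171558943-171559192, plus strand: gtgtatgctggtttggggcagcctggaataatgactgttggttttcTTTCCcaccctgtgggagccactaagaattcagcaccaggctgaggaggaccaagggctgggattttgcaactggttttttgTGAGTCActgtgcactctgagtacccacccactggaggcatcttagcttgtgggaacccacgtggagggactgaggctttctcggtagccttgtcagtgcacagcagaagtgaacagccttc
Pdcd1, chr1:94052554-94052803, minus strand: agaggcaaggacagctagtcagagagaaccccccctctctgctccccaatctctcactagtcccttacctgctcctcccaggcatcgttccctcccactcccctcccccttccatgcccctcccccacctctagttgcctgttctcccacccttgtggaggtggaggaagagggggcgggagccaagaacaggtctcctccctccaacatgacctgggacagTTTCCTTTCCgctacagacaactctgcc
Cd200, chr16:45409054-45409303, minus strand: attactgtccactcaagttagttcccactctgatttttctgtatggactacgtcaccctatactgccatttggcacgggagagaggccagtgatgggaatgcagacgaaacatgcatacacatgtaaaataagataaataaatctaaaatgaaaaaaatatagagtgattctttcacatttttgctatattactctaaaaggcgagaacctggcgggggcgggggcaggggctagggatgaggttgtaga

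The Havcr2 window held 1 match to TGANTCA, and the Cd244a window held 1 match to TGANTCA and 1 to GGAAA. The Pdcd1 window held 2 matches to GGAAA, and the Cd200 window held none of the 3 motifs. Of the windows not shown, that of Cd96 held 4 matches to GGAAA and 1 to AACAAAG, that of Tigit 2 and that of Ctla4 1 to GGAAA, and that of Btla none. Cd160 has 2 windows, of which 1 held 1 match to GGAAA and the other none. Among 32851 promoter windows of the same length, 6.75% held TGANTCA, 55.6% held GGAAA and 5.03% held AACAAAG. A match is a string of letters and does not show a bound site.

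Per kilobase of exon, the 10 genes spanned a wide range, with the same 5 genes on top in both genotypes. Lag3 led in CD73 KO at 174 ± 14.99 CPM per kilobase and Tigit in WT at 174 ± 25.3 CPM per kilobase (SD, n = 3 each). Next to them in CD73 KO came Tigit at 172 ± 3.21 and Cd96 at 136 ± 16.2 CPM per kilobase. In WT, Lag3 followed Tigit at 146 ± 15.6 and Pdcd1 at 134 ± 29.3 CPM per kilobase. Ctla4, at 76.5 ± 18.4 in CD73 KO and 80.2 ± 26.7 CPM per kilobase in WT, closed the upper group.

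Below them lay Cd160, at 34.1 ± 9.87 in CD73 KO and 33.2 ± 3.30 CPM per kilobase in WT. Btla and Cd200 stood between 16.7 and 20.8 CPM per kilobase as means of either genotype. Havcr2, at 2.95 ± 0.668 in CD73 KO and 9.82 ± 7.73 CPM per kilobase in WT, and Cd244a, at 2.00 ± 0.952 in CD73 KO and 4.85 ± 3.29 CPM per kilobase in WT, came last. Neighbours in the order mostly overlapped. In CD73 KO the ranges were apart only between Tigit and Cd96, Ctla4 and Cd160, Cd160 and Btla, and Cd200 and Havcr2. In WT they were apart only between Ctla4 and Cd160 and between Cd160 and Cd200.

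**Figure D1:**
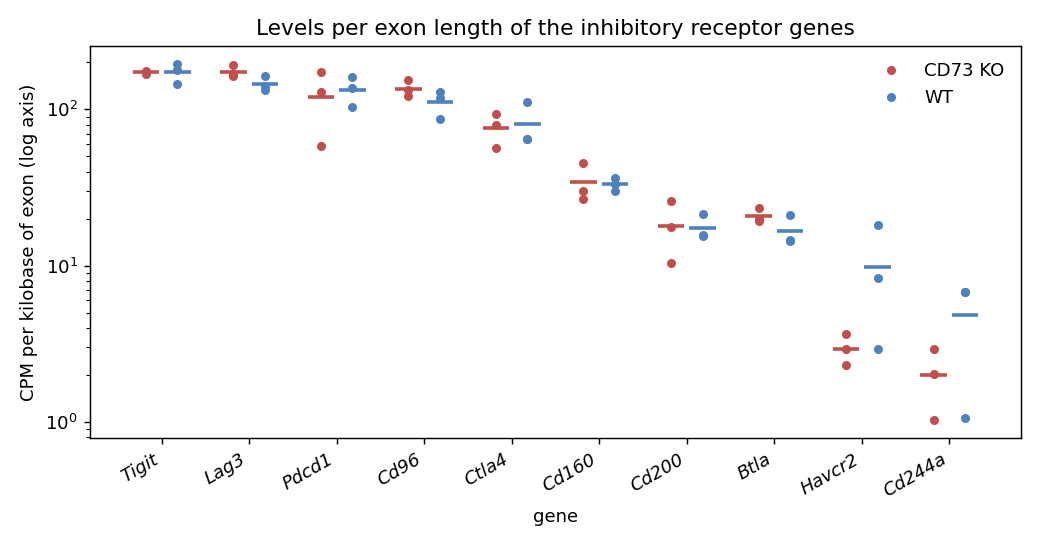
Level of each receptor gene per kilobase of exon (log axis), with CD73 KO libraries in red left of WT libraries in blue, 1 point per library and a bar at the mean of 3. Lag3, Tigit, Pdcd1, Cd96 and Ctla4 lie on top in both genotypes, and Havcr2 and Cd244a lie lowest, with the widest scatter among WT libraries.

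Between genotypes, no inhibitory receptor gene passed the test. By edgeR's quasi-likelihood test with Benjamini-Hochberg adjustment, 0 of 10 had an adjusted p under 0.05, where 7 of 12242 tested genes, 0.0572%, did. All 10 passed the filter on low counts. At an unadjusted p under 0.05 there was 1 gene, Havcr2, on the lower side, against 9.64% of tested genes in either direction and 3.89% on the lower side. Groups overlapped at all 10 genes, where they were apart at 15.2% of tested genes. In CD73 KO 5 members were higher and 5 lower, against 52.3% of tested genes higher, and the median log2 fold change was 0.01 over the members and 0.01 over all tested genes. DESeq2 called 0 of the 10 against 0.810% of its 12222 genes with an adjusted p, limma-voom called 0, and edgeR with no filter called 0 against 1.40% of 21315 genes. In bulk RNA, fewer cells that express a gene and less RNA per cell cannot be told apart.

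**Figure D2:**
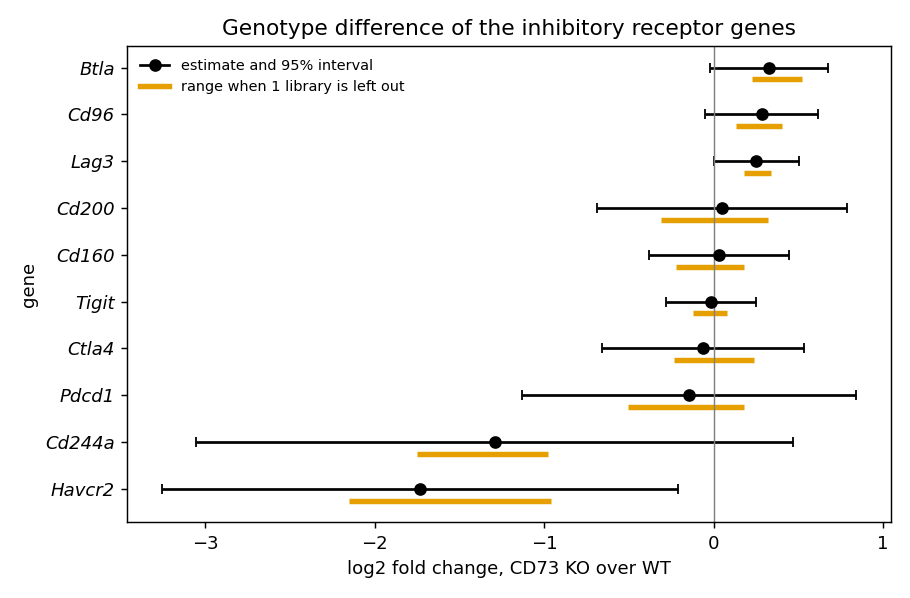
Log2 fold change of each receptor gene, CD73 KO over WT, with its 95% interval unadjusted for the number of genes (black), and the range of the estimate when 1 library at a time is left out (orange). The intervals of Havcr2 and Cd244a are the widest, and leaving out a library moved Pdcd1, Ctla4, Tigit, Cd160 and Cd200 across 0.

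Havcr2 encodes TIM-3, a receptor that binds galectin-9 among other ligands (ENSMUSG00000020399, chromosome 11, 46454935 to 46481255). It stood at 9.88, 7.91 and 6.25 CPM in CD73 KO replicates 1, 2 and 3 (186, 120 and 65 counts), and at 22.8, 49.5 and 7.96 CPM in WT replicates 1, 2 and 3 (293, 465 and 56 counts). WT replicates 1 and 2 were above all other libraries, and WT replicate 3 lay inside the CD73 KO range, with an interval of 6.01 to 10.3 CPM. The highest WT library had 6.21 times the level of the lowest, against 1.58 times in CD73 KO. The SD among WT libraries was 21.03 CPM, of which counting alone would give 1.65 CPM. This gave a log2 fold change of -1.73 ± 0.62 (SE; 95% interval -3.26 to -0.21; adjusted p = 0.492 by edgeR). Without the library labelled WT replicate 2, which also had the low Nt5e level, it was -0.96 (adjusted p = 0.999). In that fit no receptor gene had an adjusted p under 0.999, so this p is not particular to Havcr2. Genes with an unadjusted p under 0.05 by edgeR numbered 565 of 12599 there, against 1180 of 12242 with all libraries. Without WT replicate 3 the log2 fold change of Havcr2 was -2.15 (adjusted p = 0.0659), the smallest adjusted p that any receptor gene reached in 15 alternatives.

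Cd244a encodes CD244 (2B4), a SLAM family receptor for CD48 that can inhibit or activate (ENSMUSG00000004709, chromosome 1, 171559193 to 171609746). Its level was 14.3, 5.01 and 9.90 CPM in CD73 KO replicates 1, 2 and 3, and 32.9, 33.0 and 5.12 CPM in WT replicates 1, 2 and 3. As for Havcr2, WT replicates 1 and 2 were above the rest and WT replicate 3 was among the lowest. For Cd244a the log2 fold change was -1.29 ± 0.71 (SE; 95% interval -3.05 to 0.47; adjusted p = 0.611 by edgeR), and leaving out single libraries gave -1.75 to -0.98. The annotation places Ly9 on the other strand over part of the same locus. Ly9 had 1044 to 4212 counts per library against 36 to 423 for Cd244a, and although the library kit keeps strand, the strand setting of the counting is not given, so reads of the pair may not be told apart where they overlap.

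Among WT libraries, Havcr2 and Cd244a varied more than the other 8 receptor genes. There the SD of log2 CPM was 1.31 for Havcr2 and 1.53 for Cd244a, where the median over tested genes was 0.15, and 99.7% and 99.8% of tested genes had no larger one. Among CD73 KO libraries the order was another, with an SD of 0.81 for Pdcd1, 0.75 for Cd244a, 0.65 for Cd200, 0.40 for Cd160, 0.37 for Ctla4 and 0.32 for Havcr2, against a median of 0.20 over tested genes. Whether the spread itself differed between genotypes was not tested.

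**Figure D3:**
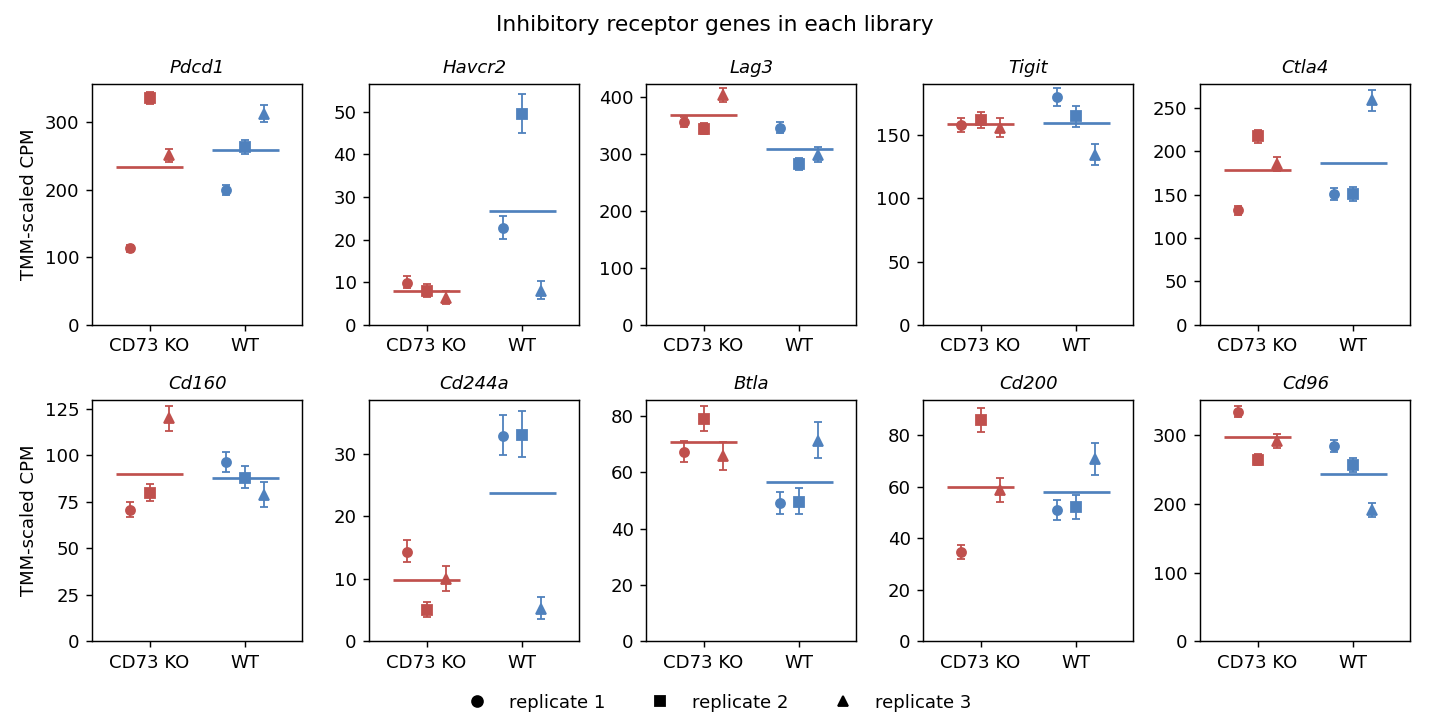
TMM-scaled CPM of the 10 receptor genes in each library, CD73 KO (red) left of WT (blue), with exact 95% Poisson intervals as error bars, marker shapes for the replicate numbers and a bar at the mean of 3. Havcr2 and Cd244a are high in WT replicates 1 and 2 only, and Pdcd1, Ctla4 and Cd200 are lowest in CD73 KO replicate 1.

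Pdcd1 encodes PD-1, the receptor for PD-L1 and PD-L2 (ENSMUSG00000026285, chromosome 1, 94038305 to 94052553). It stood at 113, 336 and 251 CPM in CD73 KO replicates 1, 2 and 3, and at 199, 263 and 312 CPM in WT replicates 1, 2 and 3. Both extremes of the 6 libraries were CD73 KO libraries, so that the WT range lay inside the CD73 KO range. The SD among CD73 KO libraries was 112 CPM, of which counting would give 4.17 CPM, and 98.0% of tested genes had no larger SD of log2 CPM there. The log2 fold change of -0.15 ± 0.40 (SE; 95% interval -1.13 to 0.84; adjusted p = 0.926 by edgeR) turned to 0.18 without CD73 KO replicate 1. The interval holds sizeable changes in both directions.

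Ctla4 encodes CTLA-4, which competes with CD28 for CD80 and CD86 (ENSMUSG00000026011, chromosome 1, 60887000 to 60915832). Its level was 132, 217 and 185 CPM in CD73 KO replicates 1, 2 and 3, and 151, 151 and 259 CPM in WT replicates 1, 2 and 3. WT replicate 3 was the highest library and CD73 KO replicate 1 the lowest. Ctla4 had a log2 fold change of -0.07 ± 0.26 (SE; 95% interval -0.66 to 0.53; adjusted p = 0.955 by edgeR). A pseudogene, Rpl18-ps1, lies within the locus on the same strand and had 44 to 100 counts per library, against 1418 to 3296 for Ctla4.

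Btla encodes an inhibitory receptor that binds HVEM, the product of Tnfrsf14 (ENSMUSG00000052013, chromosome 16, 45224315 to 45257670). It stood at 67.3, 79.1 and 65.8 CPM in CD73 KO replicates 1, 2 and 3, and at 49.0, 49.6 and 71.2 CPM in WT replicates 1, 2 and 3. All CD73 KO libraries were above WT replicates 1 and 2, and WT replicate 3 fell among them. Btla had a log2 fold change of 0.33 ± 0.16 (SE; 95% interval -0.02 to 0.67; adjusted p = 0.534 by edgeR), and it was 0.23 to 0.52 with single libraries left out, highest without WT replicate 3.

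Cd200 encodes a ligand-type surface glycoprotein that signals into cells carrying its receptor CD200R1 (ENSMUSG00000022661, chromosome 16, 45382135 to 45409053). Its level was 34.7, 86.0 and 58.7 CPM in CD73 KO replicates 1, 2 and 3, and 51.0, 52.1 and 70.7 CPM in WT replicates 1, 2 and 3. The pattern over libraries was that of Pdcd1, with CD73 KO replicate 1 lowest and CD73 KO replicate 2 highest. The log2 fold change of 0.05 ± 0.31 (SE; 95% interval -0.69 to 0.79; adjusted p = 0.971 by edgeR) turned to -0.31 without CD73 KO replicate 2.

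Pdcd1, Cd200 and Ctla4 shared their high libraries. In each of the 3 genes CD73 KO replicate 2 and WT replicate 3 were the highest libraries of their genotypes, and CD73 KO replicate 1 was the lowest of all. The high libraries were not particular to these genes. Btla had the same, at 79.1 and 71.2 CPM, and so did Cd28, which is not a member, at 389 and 260 CPM. Over the whole transcriptome CD73 KO replicates 1 and 2 were weakly correlated with WT replicate 3, in opposite directions. Deviations from the genotype mean over 12242 genes had a Pearson r of 0.36 between CD73 KO replicate 2 and WT replicate 3, across genes that are not independent, and -0.32 between CD73 KO replicate 1 and WT replicate 3. Deviations cancel out within a genotype, so the latter value partly follows from the former. CD73 KO replicate 1 was the deepest library and WT replicate 3 the shallowest. The part of depth or of culture in this pattern was not tested.

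**Figure D4:**
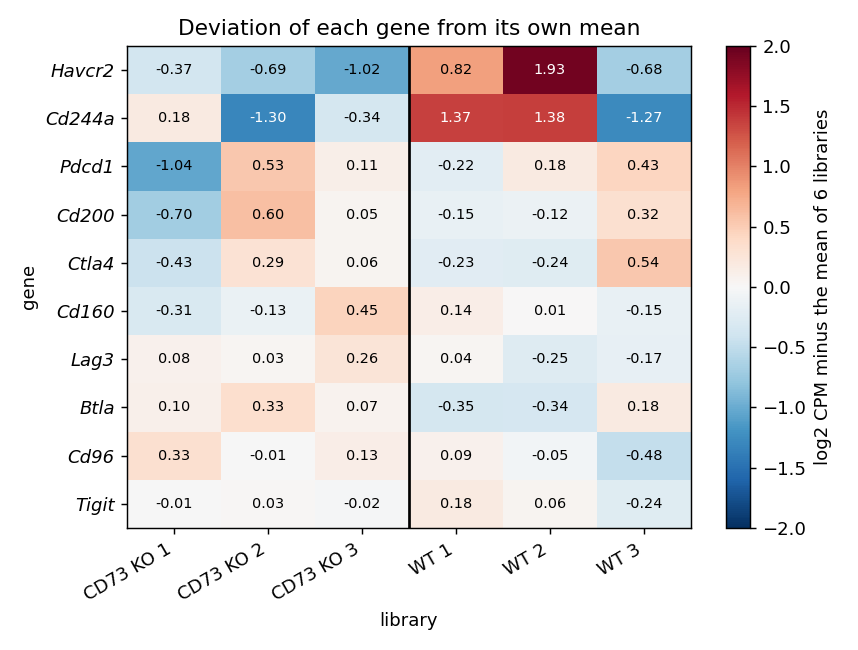
Log2 CPM of each receptor gene minus its own mean over the 6 libraries, with CD73 KO libraries left of the line and WT libraries right of it. Havcr2 and Cd244a are above their means in WT replicates 1 and 2 by 0.82 to 1.93, Pdcd1, Cd200 and Ctla4 are below theirs in CD73 KO replicate 1, and Tigit stays within 0.24 of its mean.

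Tigit encodes a receptor for the nectin-like ligand CD155 (ENSMUSG00000071552, chromosome 16, 43648867 to 43664146). It stood at 158, 162 and 156 CPM in CD73 KO replicates 1, 2 and 3, and at 180.2, 165 and 134 CPM in WT replicates 1, 2 and 3. The CD73 KO libraries lay so close that their SD of 2.95 CPM was below the 3.37 CPM that counting alone gives, and only 1.49% of tested genes had no larger SD of log2 CPM there. The log2 fold change was -0.01 ± 0.12 (SE; 95% interval -0.28 to 0.25; adjusted p = 0.980 by edgeR). Its sign turned when WT replicate 1 or 2 was left out.

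Cd96 encodes the other nectin-family receptor of the group, which shares CD155 with TIGIT (ENSMUSG00000022657, chromosome 16, 46035657 to 46120251). Its level was 335, 265 and 291 CPM in CD73 KO replicates 1, 2 and 3, and 284, 257 and 191 CPM in WT replicates 1, 2 and 3. WT replicate 3 was the lowest library, and CD73 KO replicate 2 fell between WT replicates 1 and 2. Cd96 had a log2 fold change of 0.28 ± 0.15 (SE; 95% interval -0.05 to 0.62; adjusted p = 0.576 by edgeR), and it was 0.13 without WT replicate 3. Tigit, Btla, Cd200 and Cd96 all lie on chromosome 16 between 43648867 and 46120251, and their log2 fold changes ran from -0.01 to 0.33.

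Lag3 encodes a CD4-related receptor for MHC class II and FGL1 (ENSMUSG00000030124, chromosome 6, 124904361 to 124911705). It stood at 355, 344 and 403 CPM in CD73 KO replicates 1, 2 and 3, and at 345, 282 and 298 CPM in WT replicates 1, 2 and 3. CD73 KO replicate 3 was the highest library and WT replicate 2 the lowest, but WT replicate 1 was level with CD73 KO replicate 2 within counting error. Lag3 had a log2 fold change of 0.25 ± 0.11 (SE; 95% interval -0.00045 to 0.50; adjusted p = 0.518 by edgeR), and it was 0.18 to 0.34 with single libraries left out.

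Cd160 encodes a lipid-anchored receptor that, like BTLA, binds HVEM (ENSMUSG00000038304, chromosome 3, 96798763 to 96829351). Its level was 70.7, 79.8 and 119.7 CPM in CD73 KO replicates 1, 2 and 3, and 96.2, 88.0 and 78.8 CPM in WT replicates 1, 2 and 3. The WT range lay inside the CD73 KO range. The log2 fold change of 0.03 ± 0.19 (SE; 95% interval -0.38 to 0.45; adjusted p = 0.967 by edgeR) turned to -0.22 without CD73 KO replicate 3. Pdzk1 overlaps the locus on the other strand and had 7 to 19 counts per library, against 554 to 1330 for Cd160.

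For 6 of the receptors, the balance with another gene was read as a log2 ratio of counts within a library. Such a ratio does not depend on scaling between libraries. The other gene, called the partner here, was a ligand, an activating counterpart or, for Havcr2, a marker gene. With 3 libraries against 3 the exact permutation test, two-sided, cannot go below p = 0.1, and p-values were adjusted over the 6 ratios. Havcr2 over Slamf6, the gene of a surface marker of stem-like cells, was -2.98, -2.75 and -2.69 in CD73 KO and -0.24, 0.96 and -2.38 in WT. The CD73 KO ratios were all below the WT ratios, by a difference of means of -2.25 (exact p = 0.1, adjusted p = 0.4). The gap to WT replicate 3 was small, and without WT replicate 2 the difference was -1.50. Slamf6 itself averaged 57.4 ± 19.1 CPM over the CD73 KO libraries, against 31.3 ± 8.97 CPM over the WT libraries (SD, n = 3 each).

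For the receptors with an activating counterpart, Ctla4 over Cd28 averaged -0.72 ± 0.17 in CD73 KO and -0.31 ± 0.28 in WT (SD, n = 3 each; exact p = 0.2, adjusted p = 0.4). Cd96 over Cd226 averaged 3.14 ± 0.18 in CD73 KO and 2.78 ± 0.20 in WT (SD, n = 3 each; exact p = 0.2, adjusted p = 0.4). Tigit over Cd226 averaged 2.24 ± 0.06 in CD73 KO and 2.18 ± 0.27 in WT (SD, n = 3 each; exact p = 0.7, adjusted p = 0.7). For the receptors with their ligand, Btla over Tnfrsf14 averaged 2.67 ± 0.31 in CD73 KO and 2.62 ± 0.29 in WT (SD, n = 3 each; exact p = 0.7, adjusted p = 0.7). Cd244a over Cd48 averaged -4.41 ± 0.61 in CD73 KO and -3.41 ± 1.45 in WT (SD, n = 3 each; exact p = 0.3, adjusted p = 0.45). For Cd244a over Cd48, of mean difference -0.996, leaving out WT replicate 3 gave -1.83. Leaving out CD73 KO replicate 2 gave -0.64, leaving out WT replicate 1 gave -0.56 and leaving out WT replicate 2 gave -0.60. The difference of -0.42 for Ctla4 over Cd28 was -0.27 without WT replicate 3. None of these 5 ratios separated the genotypes.

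**Figure D5:**
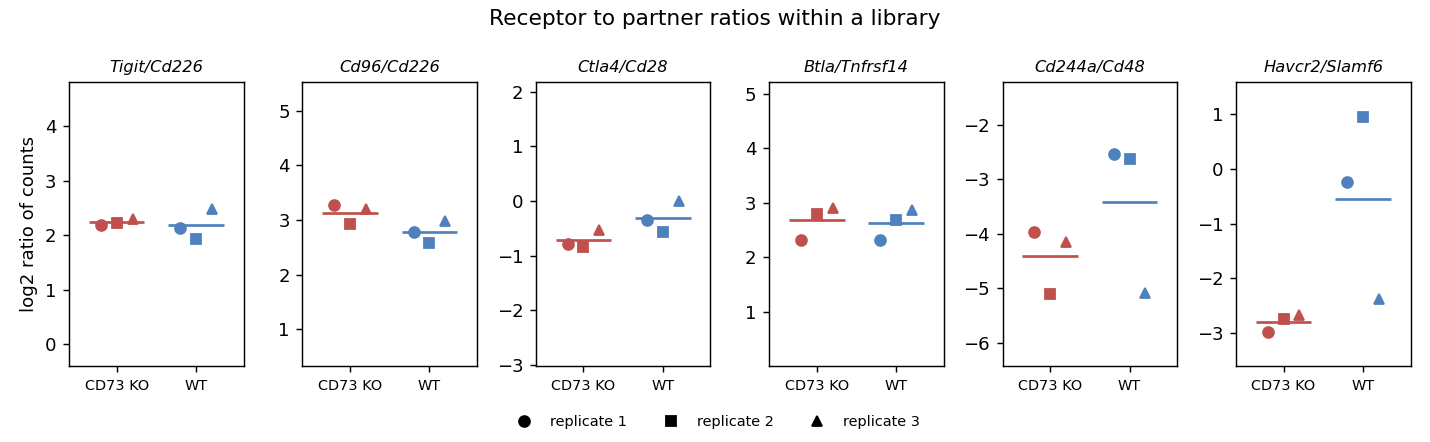
Log2 ratio of the counts of a receptor gene to those of the gene it was paired with in each library, CD73 KO (red) left of WT (blue), with marker shapes for the replicate numbers and a bar at the mean of 3. All panels span the same number of log2 units. Havcr2 over Slamf6 lies between -2.98 and -2.69 in CD73 KO and reaches 0.96 in WT replicate 2, with WT replicate 3 close to the CD73 KO libraries.

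Ligands and binding partners of the receptors were expressed in the same cells in part. Of 18 listed, 13 were tested, 8 of them higher and 5 lower in CD73 KO (median 0.04 on the log2 scale), and 0 were called by edgeR, with 3 higher and 1 lower at an unadjusted p under 0.05 (5.75% and 3.89% of tested genes). Lgals9, which encodes galectin-9, stood at 202, 173 and 147 CPM in CD73 KO and 116, 141 and 125 CPM in WT, with a log2 fold change of 0.45 ± 0.13 (SE; adjusted p = 0.361). Cd274, which encodes PD-L1, stood at 45.1, 30.7 and 30.2 CPM in CD73 KO and 27.5, 27.0 and 24.5 CPM in WT (log2 fold change 0.43 ± 0.17, adjusted p = 0.492). Cd86, a ligand of CTLA-4 and CD28, stood at 10.5, 7.06 and 6.06 CPM in CD73 KO and 4.81, 3.404 and 4.41 CPM in WT (0.91 ± 0.27, adjusted p = 0.357). In these 3 genes every CD73 KO library was above every WT library, as in 7.59% of tested genes, and none passed the test over all genes. They were named for having the smallest p in the list, so that share is no yardstick for them. The gene of this list lower at an unadjusted p under 0.05 was Cd200r1, the receptor gene for CD200, with a mean under 5 CPM in both genotypes. It stood at 1.06, 2.64 and 3.17 CPM in CD73 KO and 7.22, 5.00 and 2.27 CPM in WT (log2 fold change -1.15 ± 0.47, adjusted p = 0.502 by edgeR). Fgl1 had 0 counts in every library, and 3 counts, taken as the limit that a count of 0 allows, equal 0.155 to 0.433 CPM of the library total without TMM factors.

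Genes of the proteins that carry the receptors' signals and control their turnover had median log2 fold changes near 0. Of 16 signalling genes 15 were tested, 5 higher and 10 lower, with a median of -0.04, and of 11 trafficking and turnover genes 10 were tested, 4 higher and 6 lower, with a median of -0.02. In both lists 0 were called by edgeR, and 0 had an unadjusted p under 0.05, against 0.0572% and 9.64% of all tested genes. The smallest p-values belonged to Inpp5d, which encodes the phosphatase SHIP1 (-0.21 ± 0.17, adjusted p = 0.700), and to Cblb, a ubiquitin ligase that restrains T cell activation (0.31 ± 0.14, adjusted p = 0.520).

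Costimulatory counterparts were tested in 14 of 14 cases, 8 higher and 6 lower, with a median of 0.04 and 0 called (1 higher at an unadjusted p under 0.05). Over all tested genes 52.3% were higher, 0.0572% were called and 5.75% were higher at an unadjusted p under 0.05. The median was 0.01. Slamf6 had the smallest p (0.89 ± 0.27, adjusted p = 0.379 by edgeR), followed by Cd28 (0.39 ± 0.19, adjusted p = 0.551) and Cd27 (0.21 ± 0.11, adjusted p = 0.582). DESeq2 called Slamf6 (adjusted p = 0.0389). Other inhibitory receptors, 8 of 12 of which were tested, were all higher in CD73 KO, with a median of 0.26 and 0 called, against 52.3% higher, a median of 0.01 and 0.0572% called over all tested genes. The 8 were not tested as a group. Their smallest p-values by edgeR, at a mean of at least 5 CPM, belonged to Pecam1 (0.51 ± 0.19, adjusted p = 0.449), to Cd101, a marker of terminally exhausted cells (0.76 ± 0.33, adjusted p = 0.520), and to Vsir, which encodes VISTA (0.25 ± 0.12, adjusted p = 0.530). Vsir was not among the largest changes, as Lair1 had 0.41 ± 0.23 (adjusted p = 0.591).

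Transcription factors tied to these genes were tested in 21 of 22 cases, 15 higher and 6 lower, with a median of 0.22 and 0 called by edgeR. Over all tested genes 52.3% were higher, and the median was 0.01. At an unadjusted p under 0.05 there were 5, all higher, against 5.75% of tested genes on the higher side. No test of the list as a whole was made. Tcf7, which encodes TCF-1, averaged 326 ± 47.4 CPM over the CD73 KO libraries, against 191 ± 50.7 CPM over the WT libraries (SD, n = 3 each; log2 fold change 0.77 ± 0.20, adjusted p = 0.319), and DESeq2 called it (adjusted p = 0.0118). Tox, a factor required for exhausted cells to persist, averaged 67.8 ± 9.09 CPM over the CD73 KO libraries, against 50.9 ± 2.78 CPM over the WT libraries (SD, n = 3 each; 0.41 ± 0.13, adjusted p = 0.367). Foxo1 had 0.41 ± 0.13 (adjusted p = 0.392).

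The genes nearest in pattern were taken for the 4 receptors that spanned at least 1 log2 unit over the 6 libraries, by the root-mean-square difference of centred log2 CPM among 9147 protein-coding genes with a mean of at least 5 CPM. For Havcr2 they were Adam8 (difference 0.37), Chl1 (0.55) and Filip1 (0.55). Adam8, a surface metalloprotease gene, stood at 21.1, 11.3 and 8.08 CPM in CD73 KO and 25.1, 55.3 and 15.9 CPM in WT. For Cd244a they included Sytl2, a gene of granule secretion (0.43), and Ugt1a7c (0.43). Sytl2 stood at 51.5, 19.8 and 26.6 CPM in CD73 KO and 62.6, 73.8 and 22.3 CPM in WT, again high in WT replicates 1 and 2 and also in CD73 KO replicate 1.

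For Pdcd1 they were Tg (0.16), Exo5 (0.17) and Mrm2 (0.17), and for Cd200 Pot1a (0.09), Zfp322a (0.09) and AU022252 (0.09). Nearness in pattern is a description of these libraries alone.

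Some of the receptors are also made by other cell types, so their markers were read in every library. Ms4a1 and Pax5 of B cells, Lyz2, Csf1r, C1qa and Spi1 of myeloid cells and Siglech, Xcr1 and Clec9a of dendritic cells had 0 counts throughout. Cd4 had 0 to 5 counts and Foxp3, the factor of regulatory T cells, which express Ctla4 and Tigit highly, had 0 to 2. The 3 markers of CD4 and regulatory T cells summed to 1.44 to 1.98 CPM in CD73 KO and 2.33 to 3.41 CPM in WT. The 4 markers of NK cells, which express Cd244a, Cd160, Havcr2 and Cd96, summed to 1.54 to 3.88 CPM in CD73 KO and 1.42 to 5.85 CPM in WT. Their highest single gene, Klrb1c, had 3.45, 1.52 and 1.35 CPM in CD73 KO replicates 1, 2 and 3, and 3.18, 3.83 and 0.995 CPM in WT replicates 1, 2 and 3. Ncr1 had 5, 1 and 2 counts in CD73 KO replicates 1, 2 and 3, and 2, 8 and 1 in WT. In the same order, Klra4 had 1, 3 and 0 counts in CD73 KO and 1, 7 and 2 in WT. Klra8 had 2, 0 and 0 counts in CD73 KO and 0, 4 and 0 in WT. All 4 NK markers were highest in WT replicate 2, where Havcr2 was highest, though all but Klrb1c had 8 counts or fewer. Klrb1c was thus low in WT replicate 3, where Havcr2 and Cd244a were low. In CD73 KO replicate 1 it was near its level in WT replicate 1. There Havcr2 had 9.88 CPM against 22.8 CPM in WT replicate 1, and Cd244a had 14.3 against 32.9 CPM. The part of NK cells in the levels of Havcr2 and Cd244a was not tested. The 5 markers of B cells summed to 1.63 to 2.44 CPM in CD73 KO and 0.638 to 1.71 CPM in WT, the 7 of myeloid cells, mostly Cd68, to 10.1 to 12.8 and 8.82 to 9.63 CPM, the 5 of dendritic cells to 0.425 to 1.52 and 0.425 to 1.28 CPM, and the 4 of stromal and endothelial cells to 1.12 to 1.65 and 1.06 to 1.56 CPM in CD73 KO and WT.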

How the data were processed

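The authors deposited raw counts of reads per gene for 6 libraries, keyed by mouse Ensembl identifiers. Tools named in the submitters' processing notes are HISAT2, featureCounts and fastp, and the build named there is mm10. Libraries were made with a stranded kit, per the labels' protocols, but the strand setting of the counting is not stated, so overlapping genes can share reads. Symbols were found for 49326 of 49671 identifiers. GENCODE M21 (GRCm38) gave coordinates and exon lengths.

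In R 4.3.3, edgeR 4.0.16 was run with TMM factors and its quasi-likelihood F-test (robust, legacy fit) on genes passing filterByExpr at a minimum count of 10 and a total of 15. The Benjamini-Hochberg adjustment spanned every tested gene, and calls needed an adjusted p under 0.05. The SE is the log2 fold change divided by the square root of F. Log2 ratios had 0.5 added to each count. Alternatives were RLE factors, library size alone, no filter, 1 CPM in 3 libraries, no robust estimation, a replicate block, each library left out, DESeq2 1.42.0, limma-voom (limma 3.58.1) and, added later, the edgeR 4 fit. The test was checked on simulated data. These were drawn with the dispersions of the same fit, so they cannot check those dispersions.

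The receptor genes, lists and tests were chosen with earlier results of these data known. Besides the 10 receptors, genes were named as ratio partners, as the 3 of smallest p in a list with a mean of at least 5 CPM (some shown with fewer), or as nearest patterns, of which 1 is not reported here. Lilrb4a, of the list of other inhibitory receptors, had no row and was not analysed here.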

Additional observations from a re-analysis of the deposited data

How the results depend on the processing

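In 15 alternatives 0 of the 10 receptor genes were called. The count over all genes, 7, was 298 without a filter on low counts, 99 with DESeq2, and 4 to 8 with single libraries left out (4 without CD73 KO replicate 2 or WT replicate 2). Without a filter, 3 genes of ligands and binding partners (Lgals9, Cd86 and Cd200r1) and 1 costimulatory gene (Slamf6) were called. So were 2 other inhibitory receptors (Cd101 and Pecam1) and 3 transcription factor genes (Tcf7, Nr4a2 and Id3). DESeq2 called 1 costimulatory gene and 1 transcription factor gene, Slamf6 and Tcf7. The causes were not tested. Havcr2, Cd244a, Lag3, Btla and Cd96 kept their direction in all 15. With single libraries left out, log2 fold changes ran from -0.51 to 0.18 for Pdcd1, -0.12 to 0.079 for Tigit, -0.23 to 0.24 for Ctla4, -0.22 to 0.18 for Cd160 and -0.31 to 0.32 for Cd200. Cd160 and Cd200 were also below 0 with limma-voom (-0.015 and -0.029). The ratio difference ran from -0.064 to 0.21 for Tigit over Cd226 and from -0.11 to 0.23 for Btla over Tnfrsf14.

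The labels do not say whether libraries with the same replicate number were paired. Deviations of same-numbered libraries correlated at 0.15, -0.17 and 0.01, which cannot decide it. With the replicate block, 5 genes were called, 0 of them receptors, and Cd160 and Cd200 had -0.0011 and -0.032. Libraries of 6934150 to 19382950 counts leave Havcr2 and Cd244a with 36 to 465 counts.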

Other observations

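Several genes of the lists were too low to be tested. Klrg1, an inhibitory lectin-type receptor of short-lived effector cells, had 3, 1 and 0 counts in CD73 KO replicates 1, 2 and 3, and 2, 14 and 0 counts in WT replicates 1, 2 and 3, so that its highest library was WT replicate 2, the library with the highest Havcr2 level. Tox2, a relative of Tox, had 1 count in CD73 KO replicate 3 and 0 in the other 5 libraries. H2-Ab1, a chain of the MHC class II ligand of LAG-3, stood at 19.7, 25.3 and 6.83 CPM in CD73 KO and 5.67, 10.3 and 19.8 CPM in WT, while its partner chain H2-Aa had 0 to 4 counts per library.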
